A study of Citrus sinensis with 12 samples.

Results

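In roots of sweet orange, 93 genes were lower under copper excess by a similar amount at pH 3 and at pH 4.8. They were chosen by measured values among 18730 annotated identifiers, of which 10987 had a mean of at least 5 FPKM in both groups with 0.5 µM copper and are called eligible genes here. FPKM is a level in which the fragments of a gene are divided by its length and by the size of the library. A gene was taken when its group mean, as log2(FPKM + 1), was lower by at least 1 with 300 than with 0.5 µM copper at each pH, and when these differences lay less than 1 apart. This left 93 members, 0.846% of the eligible genes. Among the eligible genes 233 were lower by at least 1 at pH 3, 576 at pH 4.8 and 108 at both. Of these 108, 15 were left out because the differences were unlike, 3 with the larger difference at pH 3 and 12 with the larger at pH 4.8.

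The roots came from seedlings of Citrus sinensis held for 17 weeks in 4 groups of 3 libraries: pH 4.8 with 0.5 µM CuCl2, which the labels call the control level of both factors, pH 3 with 0.5 µM, pH 4.8 with 300 µM (labelled copper toxicity) and pH 3 with 300 µM. Each library was made from the pooled roots of 4 seedlings grown in separate pots, so the spread between libraries is that between pools. The titles of the pH 4.8 control libraries give 5 µM copper, whereas their treatment label and the design text give 0.5 µM, which was used. The series' title names a higher pH easing copper toxicity in the roots as its subject. The cultivar and seedling age are not given in the sources used.

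Copper is a micronutrient that plants need as a cofactor of electron transport proteins and oxidases, and in excess it damages roots first and checks their growth. Plant cells take it up through copper transporters at the plasma membrane, and lower it in the cytosol by chelation and export. Acidity of the medium bears on how much copper is in solution and on how protons compete with it at the root surface. The deposited tables do not pair the identifiers with names, and 0 of the 20122 listed loci and 0 of the 93 members were found in the RefSeq gene table. Members are therefore given by identifier and position without a role, root cell type markers could not be checked, and no sequences are shown. Positions are those of the deposited tables, and their genome build is not given in the sources used.

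Depth, read from the spacing of low FPKM, was 17710000 to 22780000 fragments a library. A locus of 1 kb with 3 fragments then has 0.132 to 0.169 FPKM, which was taken as the floor and covers only the error of counting. No member was listed at 0 in any library. In bulk root tissue, fewer cells of a type and less RNA per cell cannot be told apart, and this holds for every difference given here. Genes with near-identical copies are uncertain, since the handling of reads that map to several places is not stated in the sources used.

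The members had a higher median level with 0.5 µM copper than the eligible genes and stayed detectable with 300 µM. Their median level was 37.3 FPKM at pH 3 and 37.6 FPKM at pH 4.8 with 0.5 µM copper, against 12.8 FPKM and 13.0 FPKM with 300 µM. Averaged over both groups with 0.5 µM, members ranged from 5.67 to 2434 FPKM with a median of 37.2, and the median of the eligible genes was 19.0 FPKM. At least 100 FPKM was reached by 19 members, or 20.4%, against 10.4% of eligible genes. These levels are not free of the choice of members. The rule used the means with 0.5 µM, and its log2(FPKM + 1) scale understates falls of low genes. A further 67 lay between 10 and 100 FPKM and 7 below 10 FPKM. Only orange1.1t01764 averaged less than 1 FPKM with copper excess. Its libraries read 5.63, 6.37 and 5.47 FPKM at pH 3 with 0.5 µM and 1.20, 0.59 and 0.45 FPKM with 300 µM. At pH 4.8 they read 4.79, 6.15 and 5.58 FPKM with 0.5 µM and 0.42, 0.65 and 0.79 FPKM with 300 µM, so the copper libraries lay below the others at both pH.

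With 300 µM copper, a member's mean was 39.0% of its mean with 0.5 µM at pH 3 in the median, with quartiles of 29.9% and 43.0%. At pH 4.8 it was 35.1% in the median, with quartiles of 26.7% and 41.7%. The median copper difference, on the log2(FPKM + 1) scale as are all differences below, was -1.29 at pH 3 (quartiles -1.60 and -1.13, lowest -2.76). At pH 4.8 it was -1.41 (quartiles -1.85 and -1.18, lowest -2.47). These values chose the members and are given with no test. The medians of the eligible genes were -0.02 at pH 3 and -0.07 at pH 4.8. Many members lay near the limit, with 42 between -1 and -1.25 at pH 3 and 31 at pH 4.8.

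**Figure D1:**
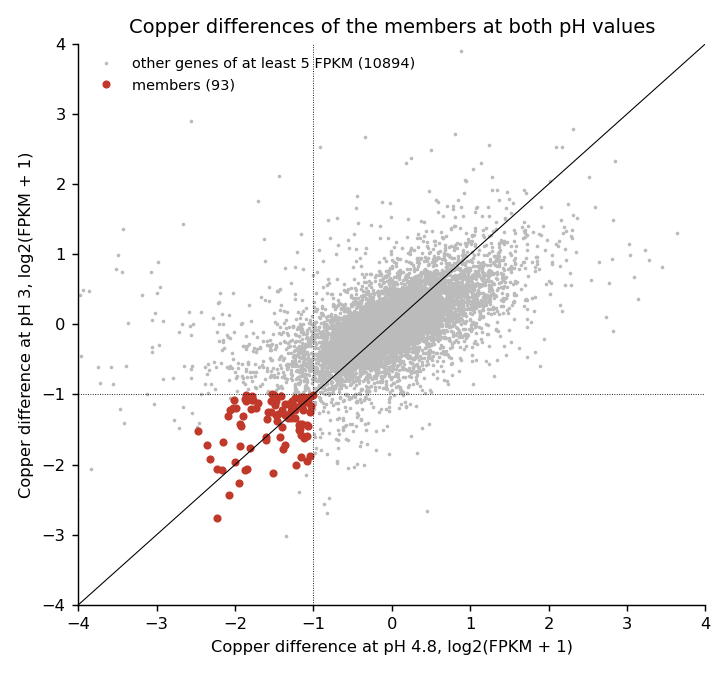
Copper difference (300 minus 0.5 µM copper, log2(FPKM + 1)) at pH 3 on the vertical axis against that at pH 4.8 on the horizontal axis, for the 93 members (red) and the other 10894 eligible genes (grey), with dotted lines at -1 and a diagonal of equality. The members fill the corner below -1 on both axes because the rule placed them there, and 23 genes beyond the axes are not drawn.

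The copper differences of a member at the 2 pH values lay less than 1 apart because the rule required it. The difference at pH 3 minus that at pH 4.8 had a median of 0.07, quartiles of -0.18 and 0.40, and a range from -0.87 to 0.95. In 45 members the values lay within 0.25 of each other. The copper difference was the lower one at pH 4.8 in 57 members and at pH 3 in 36. The members least alike were Cs7g09860, with -1.52 at pH 3 and -2.47 at pH 4.8, and Cs1g20480, with -1.07 and -2.01. They were named after their values were seen, as the only ones 0.9 or more apart.

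Genes lay closely on both sides of the limit of -1. The members nearest to it were Cs1g13970, at -1.0 at pH 3 and -1.54 at pH 4.8, and Cs2g13000, at -1.005 and -1.001. Just outside lay Cs9g16890, at -1.56 and -0.998, and Cs5g03280, at -0.997 and -1.06. The weaker difference of 29 members lay between -1.1 and -1. Another 37 eligible genes met the rest of the rule, with 1 difference at -1 or lower and the weaker between -1 and -0.9.

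The lowest means of both copper differences belonged to 2 short loci. Cs8g16900 (chromosome 8, 19804937 to 19805797, minus strand) read 20.83, 26.89 and 24.14 FPKM at pH 3 and 20.41, 22.89 and 12.49 FPKM at pH 4.8 with 0.5 µM copper. With 300 µM it read 1.94, 4.68 and 1.47 FPKM at pH 3 and 3.18, 3.02 and 3.34 FPKM at pH 4.8. Its copper differences were -2.76 at pH 3 and -2.23 at pH 4.8, and the 6 copper libraries lay below the 6 others with a wide gap. Cs1g02280 (chromosome 1, 1593848 to 1594566, minus strand) read 409.98, 391.03 and 373.63 FPKM at pH 3 and 241.16, 197.75 and 208.37 FPKM at pH 4.8 with 0.5 µM. With 300 µM the values were 45.72, 117.32 and 51.44 FPKM at pH 3 and 46.99, 65.24 and 39.08 FPKM at pH 4.8. The copper differences were -2.44 and -2.08, and replicate 2 at pH 3 stood well above the other copper libraries without reaching those with 0.5 µM.

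At -2 or lower were 9 members at pH 3 and 13 at pH 4.8, and 4 were so at both: these 2 genes, Cs6g09150 and Cs8g05840. Cs6g09150 averaged 209.3 ± 18.4 FPKM (SD, n = 3) at pH 3 and 216.8 ± 15.6 at pH 4.8 with 0.5 µM copper, against 48.8 ± 7.39 and 47.7 ± 1.69 FPKM with 300 µM. Its means at the 2 pH values differed by less than 1 SD at either copper level. Cs8g05840 averaged 55.0 ± 4.84 and 76.5 ± 8.95 FPKM (SD, n = 3) with 0.5 µM at pH 3 and pH 4.8, and 12.4 ± 2.32 and 15.6 ± 1.99 FPKM with 300 µM.

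The most abundant member was Cs9g05330 (chromosome 9, 3129179 to 3130180, plus strand). With 0.5 µM copper it read 1683.45, 1625.58 and 1613.17 FPKM at pH 3 and 3294.02, 3552.74 and 2834.37 FPKM at pH 4.8. With 300 µM it read 596.13, 730.94 and 699.31 FPKM at pH 3 and 1213.84, 1244.25 and 1074.31 FPKM at pH 4.8. Its 4 groups did not overlap, and pH 4.8 with 300 µM copper stayed below pH 3 with 0.5 µM. The copper differences were -1.28 at pH 3 and -1.45 at pH 4.8. Second in level was Cs1g19393 (chromosome 1, 22698330 to 22698996, plus strand), with 543.15, 624.75 and 509.37 FPKM at pH 3 and 2190.23, 2424.87 and 2141.23 FPKM at pH 4.8 with 0.5 µM. With 300 µM it read 200.67, 367.99 and 203.22 FPKM at pH 3 and 668.77, 746.93 and 653.92 FPKM at pH 4.8. Here the copper-treated roots at pH 4.8 lay above the roots at pH 3 with little copper, while the copper differences were -1.12 and -1.71.

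Together the members made up 1.46% to 1.52% of the summed FPKM of a library at pH 3 with 0.5 µM copper and 1.86% to 2.06% at pH 4.8. With 300 µM the shares were 0.484% to 0.626% at pH 3 and 0.649% to 0.781% at pH 4.8. The sums were 8407 ± 275 FPKM (SD, n = 3) at pH 3 and 11710 ± 679 at pH 4.8 with 0.5 µM, and 3087 ± 521 and 4050 ± 389 with 300 µM. Cs9g05330 alone gave 19.5% to 29.1% of these sums by group. Without it the means were 6766 and 8479 FPKM with 0.5 µM copper, and 2411 and 2872 FPKM with 300 µM, in the same order.

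**Figure D2:**
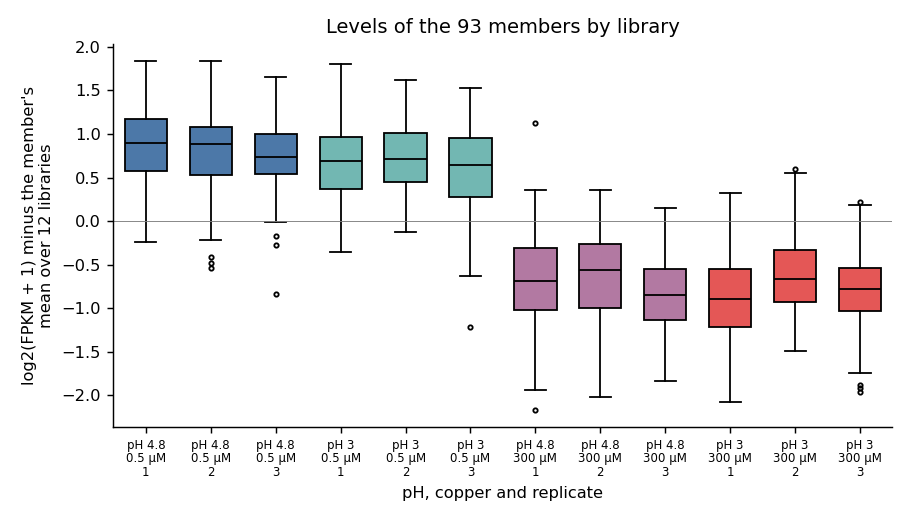
Levels of the 93 members in each of the 12 libraries, as log2(FPKM + 1) minus the member's own mean over all libraries; boxes show quartiles, the line the median, whiskers reach the farthest value within 1.5 times the box, and points are members beyond. The 6 boxes with 0.5 µM copper lie above 0 and the 6 with 300 µM below 0, and replicate 2 of pH 3 with 300 µM stands higher than the other replicates of its group.

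The libraries of a group mostly kept apart within a member. At pH 3 the 3 copper libraries lay below the 3 others in 91 members, at pH 4.8 in 91, and at both in 90, where 18.0% of the eligible genes did so at both. Since the means had been chosen to differ, nothing is read from these counts. The exceptions were Cs4g05720 at pH 3, Cs1g09310 at pH 4.8 and Cs7g08040 at both. Cs1g09310 read 22.18, 13.19 and 3.32 FPKM at pH 4.8 with 0.5 µM and 4.42, 2.23 and 1.16 FPKM with 300 µM, so replicate 3 of the low-copper group lay within the range of the copper group. In 72 members all 6 copper libraries lay below all 6 others, against 9.07% of the eligible genes.

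Replicates differed more among members than among other eligible genes. The median SD within a group was 0.15 against 0.09 at pH 3 and 0.13 against 0.09 at pH 4.8 with 0.5 µM copper. With 300 µM it was 0.26 against 0.16 at pH 3 and 0.19 against 0.11 at pH 4.8. Averaged over the groups, the spread of a member was 0.19 in the median, that of the other eligible genes 0.12, and 79 of 93 members lay above the latter. The rule used group means and not the spread, and the part of scatter in the choice of members was not tested.

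The steadiest member was Cs5g20520 (chromosome 5, 21898144 to 21900219, plus strand). It read 125.43, 125.46 and 124.01 FPKM at pH 3 and 65.99, 70.14 and 68.78 FPKM at pH 4.8 with 0.5 µM copper. With 300 µM it read 55.99, 57.02 and 51.42 FPKM at pH 3 and 29.84, 30.25 and 30.75 FPKM at pH 4.8. No group overlapped another, and the copper differences were -1.17 and -1.15. Next was Cs8g04300 (chromosome 8, 2274099 to 2275617, plus strand), whose levels at the 2 pH values were close. It read 38.27, 34.02 and 39.54 FPKM at pH 3 and 40.23, 40.32 and 41.25 FPKM at pH 4.8 with 0.5 µM, and 13.28, 15.58 and 13.97 FPKM and 15.84, 15.60 and 16.65 FPKM with 300 µM.

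The least steady member was Cs7g08040 (chromosome 7, 4987780 to 4989505, plus strand), with 4.51, 15.03 and 1.34 FPKM at pH 3 and 18.35, 3.69 and 10.37 FPKM at pH 4.8 with 0.5 µM copper. With 300 µM it read 3.74, 1.99 and 2.43 FPKM at pH 3 and 10.87, 0.59 and 2.45 FPKM at pH 4.8. Its groups overlapped at both pH values, and its copper differences were -1.10 and -1.07 beside a spread of 1.06, the mean SD within its groups. The second was orange1.1t03067 (unplaced sequence, 47675061 to 47675306, minus strand), the shortest member. It read 34.31, 48.91 and 47.14 FPKM and 53.57, 68.63 and 19.81 FPKM with 0.5 µM at pH 3 and pH 4.8, and 5.90, 18.97 and 11.42 FPKM and 9.55, 17.89 and 10.99 FPKM with 300 µM. Its copper libraries stayed below the others at each pH, by a narrow gap at pH 4.8.

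**Figure D3:**
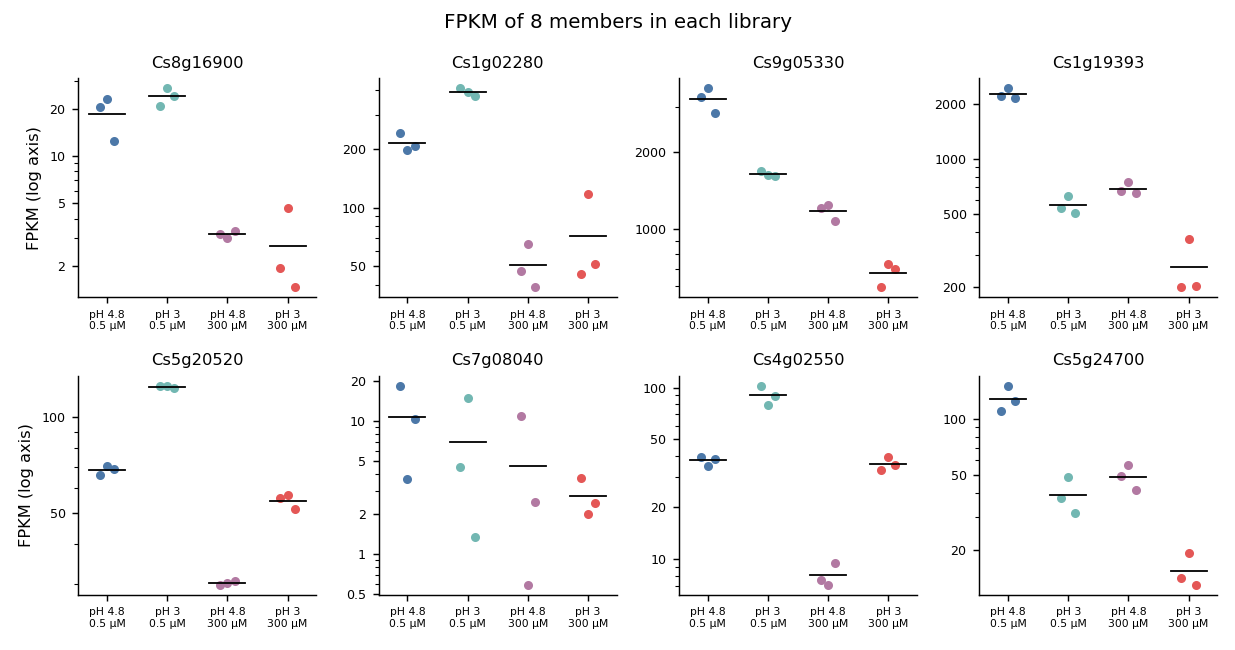
FPKM of 8 named members in each library on log axes, with points for libraries and lines for group means. In Cs5g20520 and Cs4g02550 the pH 3 groups lie above the pH 4.8 groups at each copper level, in Cs9g05330, Cs1g19393 and Cs5g24700 below them, and in Cs7g08040 the groups overlap.

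Several copper libraries stood further from their group means among the members than among the other eligible genes. Replicate 2 of pH 3 with 300 µM copper lay above its group mean in 67 of 93 members. Its median deviation over all 93 members was 0.13, against 0.03 for the other eligible genes. Its median level was 14.8 FPKM, where replicates 1 and 3 had 11.9 and 12.4 FPKM. At pH 4.8 with 300 µM, replicate 3 lay above its group mean in 27 members and replicate 2 in 65. The median deviation of replicate 3 over all 93 members was -0.11, against -0.01 for the other eligible genes. Replicate 1 of pH 3 with 300 µM lay above its group mean in 28 members, and its median deviation over all 93 was -0.09. When the rule was applied without replicate 2 of pH 3 with 300 µM, it chose 106 genes, of which 82 are members, with a median copper difference of -1.34 at pH 3. In the left-out library the median difference of these 106 genes from the mean of pH 3 with 0.5 µM was -1.08, 105 of them were below 0 and 56, or 52.8%, at -1 or lower.

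Leaving out each of the 12 libraries in turn gave 81 to 106 genes, sharing 77 to 91 with the 93 members, and 59 members were chosen in all 12 cases. In each case the left-out library was compared with the mean of the opposite copper group at its pH, whose libraries had taken part in the choice, so these values are only in part independent of it. The median copper difference was between -1.59 and -1.08, and the share of genes at -1 or lower was 52.8% to 92.4%. The lowest share came from replicate 2 of pH 3 with 300 µM and the highest from replicate 1 of pH 4.8 with 0.5 µM.

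Low pH, averaged over both copper levels, was the only contrast tested. In this balanced design it is orthogonal to the copper differences that chose the members. That frees it from the choice only if scatter is equal across groups. The members' median SD was 0.13 to 0.26 by group. Group means were logged in the rule and logs averaged in the fit, so the calls are not wholly free of the choice. The rule also required a minimum level in both low-copper groups. The contrast was tested in limma over 19204 genes, with a gene called at a Benjamini-Hochberg adjusted p under 0.05. Members went both ways: 26 were called higher at pH 3 and 37 lower, and 30 were not called. Without replicate 2 of pH 3 with 300 µM copper, 28 were called higher and 42 lower, while the shares of all genes tested were then 24.7% and 30.1%. With all libraries the shares were 28.0% and 39.8% of members, against 21.6% and 28.4% of all genes tested and 23.7% and 30.3% of the eligible genes. Of the 30 uncalled members, 5 had an unadjusted p under 0.05, and the largest difference among them was 0.65 in size. The median pH difference of the members was -0.10 with quartiles of -0.59 and 0.30, and that of the eligible genes -0.02 with quartiles of -0.26 and 0.19.

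The members called in either direction had these copper differences. Those higher at pH 3 had a median copper difference of -1.22 at pH 3 and -1.57 at pH 4.8, and those lower at pH 3 had -1.25 and -1.41. Their median level with 0.5 µM copper was 55.6 FPKM for the former and 27.7 FPKM for the latter. Neither pair of values was tested. Called higher with no overlap between the pH groups at both copper levels were 16 members, or 17.2%, against 8.43% of all genes tested and 10.1% of the eligible genes. Called lower with no such overlap were 21 members, or 22.6%, against 15.1% and 16.5%. Of 195 genes chosen by the same rule with the signs turned (copper higher at both pH, at least 5 FPKM in both copper groups), 47.2% were called higher at pH 3 and 11.3% lower. The difference between these lists and the members was not tested.

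**Figure D4:**
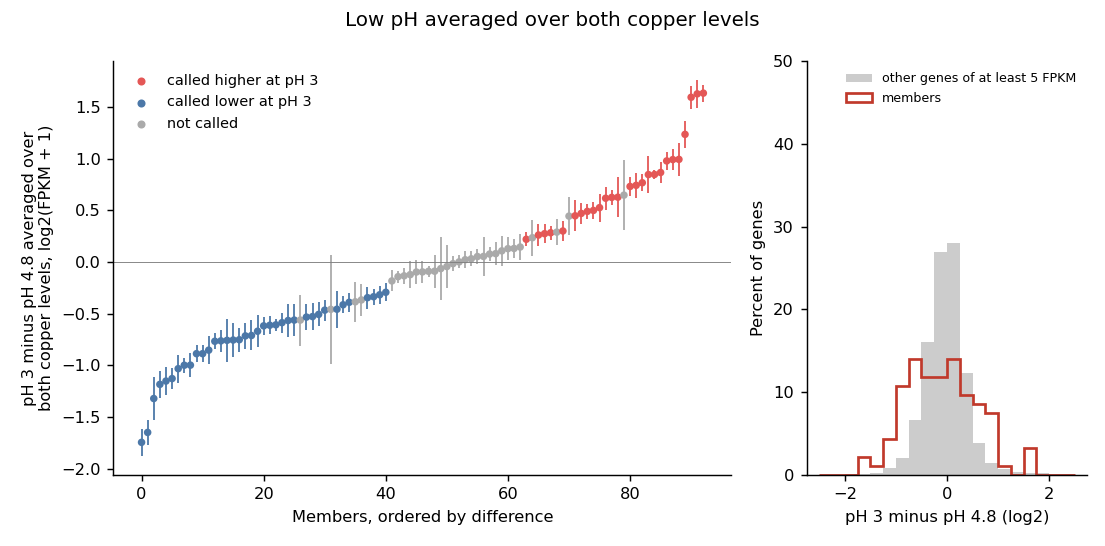
Left, average pH difference of each member (pH 3 minus pH 4.8, log2(FPKM + 1)) in rising order, with bars of 1 SE from limma and colours for the 26 called higher, 37 called lower and 30 not called. Right, the share of members (red line) and of other eligible genes (grey) by the same difference, where members spread wider to both sides and 9 genes lie beyond the axis.

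At least 1 higher at pH 3 were 4 called members, and at least 1 lower were 7, where 1.72% and 1.17% of the eligible genes were so. Cs4g02550 (chromosome 4, 1133791 to 1135479, minus strand) had the largest rise. It read 101.95, 79.51 and 89.76 FPKM at pH 3 and 39.44, 35.06 and 38.26 FPKM at pH 4.8 with 0.5 µM copper, and 32.82, 39.38 and 35.53 FPKM and 7.58, 7.08 and 9.53 FPKM with 300 µM. Its pH difference was 1.64 (SE 0.08, limma adjusted p = 3.7e-08), and its level at pH 3 with 300 µM copper was about that at pH 4.8 with 0.5 µM. Cs5g34390 (chromosome 5, 35223487 to 35224586, plus strand) followed at 1.63 (SE 0.14, limma adjusted p = 1.3e-06). Its libraries read 191.32, 185.32 and 179.62 FPKM at pH 3 and 60.31, 49.03 and 72.54 FPKM at pH 4.8 with 0.5 µM, and 86.39, 104.39 and 56.01 FPKM and 21.31, 25.96 and 27.69 FPKM with 300 µM. The pH 3 libraries of the gene lay above those of pH 4.8 at each copper level. The other members at least 1 higher were Cs5g28840, at 1.60 (SE 0.11, limma adjusted p = 3.5e-07), and Cs2g23260, at 1.24 (SE 0.13, limma adjusted p = 8e-06).

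On the other side, Cs1g19393 had the largest fall at pH 3, a pH difference of -1.74 (SE 0.13, limma adjusted p = 6.1e-07), with the library values given above. Cs5g24700 (chromosome 5, 27511744 to 27512258, plus strand) followed at -1.65 (SE 0.13, limma adjusted p = 6.1e-07). It read 37.72, 48.53 and 31.50 FPKM at pH 3 and 109.65, 148.94 and 123.88 FPKM at pH 4.8 with 0.5 µM copper, and 14.16, 19.23 and 13.00 FPKM and 49.18, 56.53 and 41.35 FPKM with 300 µM. Its pH 4.8 libraries lay above its pH 3 libraries at each copper level, and copper-treated roots at pH 4.8 had more of the transcript than low-copper roots at pH 3 on average. Cs3g07155, Cs2g13000, Cs3g26610, Cs1g03250 and Cs9g07140 fell by 1.03 to 1.32 at pH 3. The most abundant member, Cs9g05330, was lower at pH 3 by a difference of -0.89 (SE 0.08, limma adjusted p = 2.9e-06), and the steadiest, Cs5g20520, higher by 0.85 (SE 0.05, limma adjusted p = 5.1e-08).

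The order of the group means shows how pH and copper lay over each other. The rule placed 0.5 µM above 300 µM copper at each pH, so that part of every order was fixed. In 42 members the means ran from pH 4.8 with 0.5 µM through pH 3 with 0.5 µM and pH 4.8 with 300 µM to pH 3 with 300 µM. In 29 members the order was the same with the pH values exchanged at each copper level. In 8 members pH 3 led with 0.5 µM copper only, and in another 8 with 300 µM only. The step of pH exceeded that of copper in 6 members: in Cs5g28840 and Cs5g34390 both pH 3 means lay above both pH 4.8 means, and in Cs1g19393, Cs2g13000, Cs3g07155 and Cs5g24700 both lay below. Neighbours in these orders were not tested against each other.

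At each copper level the pH differences of members spread wider than those of the eligible genes. With 0.5 µM copper, 11 members (11.8%) were lower by at least 1 at pH 3 and 6 (6.45%) higher, against 1.2% and 1.33% of the eligible genes. With 300 µM, 8 (8.6%) were lower and 7 (7.53%) higher, against 2.5% and 3.63%. These are values of the group means that the rule used, so they are not free of the choice of members, and no test is given. Members also had more scatter, whose part in these values was not tested. The medians of the members were -0.12 with 0.5 µM and -0.13 with 300 µM.

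Members had a smaller median span than the eligible genes. The genomic span of a member, from start to end in the deposited tables and introns included, was 1287 bp in the median (quartiles 799 and 2045, range 246 to 7675). The median of the eligible genes was 3469 bp (quartiles 2182 and 5186). At most 1000 bp was spanned by 33 members, or 35.5%, against 6.43% of the eligible genes. Put the other way, 4.67% of the 707 short eligible genes were members and 0.584% of the 10280 longer ones. The 195 genes that were higher with copper at both pH had a median span of 2621 bp, and 13.8% of them were short. Span was no part of the rule, but short loci also had more scatter, with a median spread of 0.20 against 0.12 in longer eligible genes.

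Short eligible genes were at -1 or lower with copper more often than longer ones, 8.49% against 1.68% at pH 3 and 18.0% against 4.37% at pH 4.8. They were at 1 or higher in 4.81% against 2.02% at pH 3 and in 6.79% against 4.53% at pH 4.8. The level with 0.5 µM copper was alike in both classes, 19.4 and 19.0 FPKM in the median. Short and longer members had median copper differences of -1.49 and -1.24 at pH 3 and of -1.42 and -1.41 at pH 4.8. For pH, 4 of the 33 short members were called higher and 16 lower at pH 3, whereas of the 60 longer members 22 were called higher and 21 lower. Over eligible genes the shares were 18.8% higher and 34.2% lower in the short class, and 24.0% and 30.0% in the longer class. The part of scatter, of span or of the counting of short loci in these values was not tested.

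**Figure D5:**
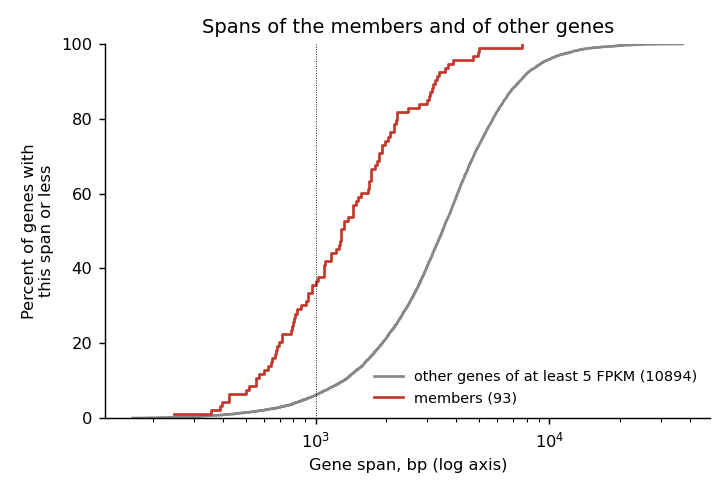
Cumulative share of the 93 members (red) and of the other 10894 eligible genes (grey) by genomic span in bp on a log axis, with a dotted line at 1000 bp. The line of the members lies to the left, with 35.5% of them at or below 1000 bp.

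The members were spread over all 9 chromosomes and the unplaced sequence. Chromosome 8 held 14 members, 1.74% of its eligible genes, and chromosome 6 held 3, or 0.330%. The unplaced sequence held 13, or 14.0% of the members, close to its 13.0% share of the eligible genes. On the plus strand were 50 members. Only Cs4g19960 overlapped another listed locus, against 4.33% of the eligible genes. It shares 816 bp with Cs4g19950 on the other strand. Since the library kit named in the labels does not mark strand, reads within this shared stretch cannot be told apart.

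Some members lay near each other. Of the 80 members placed on chromosomes, 13 (16.2%) had another member among the 10 nearest listed loci, against 4.41% of 9560 eligible genes there with a member that near. They formed 7 pairs, 5 of them on the same strand, and 2 pairs with no listed locus between. Cs8g09510 (chromosome 8, 7921451 to 7922530) and Cs8g09520 (7923001 to 7924484) lie 470 bp apart on the plus strand. Cs8g09510 read 12.16, 9.80 and 9.60 FPKM at pH 3 and 22.90, 19.82 and 21.67 FPKM at pH 4.8 with 0.5 µM copper, and 5.01, 3.56 and 5.59 FPKM and 7.36, 8.70 and 4.80 FPKM with 300 µM. Cs8g09520 read 59.83, 59.07 and 49.48 FPKM and 130.11, 124.39 and 115.25 FPKM with 0.5 µM, and 25.42, 25.49 and 27.35 FPKM and 32.46, 41.89 and 31.27 FPKM with 300 µM. Both were lower with copper at each pH and both fell at pH 3, by differences of -0.71 (limma adjusted p = 0.00054) and -0.77 (limma adjusted p = 6.1e-06).

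The second adjacent pair differed in its pH values. Cs3g03350 and Cs3g03360 lie 3514 bp apart on the minus strand of chromosome 3, with copper differences of -1.16 and -1.61 at pH 3 and of -1.49 and -1.61 at pH 4.8. Cs3g03360 was higher at pH 3 by 0.85 (limma adjusted p = 0.0019), and Cs3g03350 had a difference of -0.18 (limma adjusted p = 0.15). Without replicate 2 of pH 3 with 300 µM copper, Cs3g03350 was called lower, at -0.25 (limma adjusted p = 0.032). On chromosome 2, Cs2g22770 and Cs2g22820 had 3 listed loci between them. These 3 were at -1.20 to -1.36 with copper at pH 3 and at -0.38 to -0.78 at pH 4.8, so they met the limit at pH 3 alone. Whether neighbouring members are copies of each other, whose reads could be shared, was not tested, as no sequence was used.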

How the data were processed

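The authors deposited, per library, FPKM (fragments per length and library size) with position and strand for 20122 loci. The tools named, per the submitters' processing notes, are DESeq2 1.22.1, StringTie 1.3.4d, featureCounts 1.6.2, HISAT2 2.1.0 and fastp 0.19.3, for which no role or order is stated. The kit was NEBNext Ultra with an input of 1 µg, per the labels' protocols. The genome build, the annotation and the strand setting are not stated in the sources used.

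Members were found from group means as log2(FPKM + 1), without the 1392 assembled loci. The members and lists were chosen with earlier results of these data known. Genes of at least 1 FPKM on average in at least 1 group (19204, all members included) were fitted in limma 3.58.1 (R 4.3.3) with a mean for each of 4 groups, over 12 libraries, and a variance trend. The test is two-sided. The fit was tested on simulated data with independent libraries and equal scatter in all groups. The members' scatter differed by group, so that setting is unlike theirs. The log2 scale understates differences of low genes. Depth was recovered from whole-fragment steps: 76.1% to 79.0% of the 882 to 958 low values examined in a library were whole within 0.15, too few to rebuild counts, so no count test was run.

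Genes named are the 2 extremes among members in mean copper difference (lowest), level (highest), spread (lowest and highest), called pH difference (highest and lowest), nearness to the limit of -1 (inside and outside) and number of neighbouring members, where ties went to the nearest pair. Others are members of counts too small to leave unnamed. Alternatives were a pseudocount of 0.1, median scaling, quantile normalization, no filter, no variance trend, the replicate number as a block, and leaving out each library.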

Additional observations from a re-analysis of the deposited data

How the results depend on the processing

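The number of genes chosen was 110 with a pseudocount of 0.1 (all 93 members among them), 103 with median scaling (92 shared) and 99 with quantile normalization (86 shared). Without each library in turn it was 81 to 106. The median copper difference of the genes then chosen ranged from -1.34 to -1.28 at pH 3 and from -1.47 to -1.39 at pH 4.8. These genes were chosen anew by the limit of -1, which holds their median near it. For the fixed 93 members the median ranged from -1.38 to -1.26 at pH 3 and from -1.51 to -1.39 at pH 4.8. For low pH, 23 to 28 members were called higher and 36 to 42 lower over all alternatives, the latter extreme without replicate 2 of pH 3 with 300 µM copper. The shares of all genes tested moved as well, from 19.2% to 25.8% higher and from 24.3% to 30.1% lower. With the replicate block 28 members were called higher and 38 lower, against 22.0% and 28.7% of all genes tested. Correlations of deviations from group means ran from -0.22 to 0.24 between same-numbered libraries and from -0.32 to 0.32 between others. Above 0.1 were 7 of 18 same-numbered pairs and 5 of 36 others. Whether the numbers pair the samples was not tested. For the 17 members named for their pH differences, 305 of 306 values over 18 alternatives kept direction and call, and the exception was Cs3g03350 without replicate 2 of pH 3 with 300 µM copper. Those of these members that no naming rule covers were added to the alternatives after seeing the data. The number of libraries, 3 a group, limits what the fit can call, and members with scattered libraries are the least certain.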
